A study of Mus musculus with 2 samples.

Results

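The 10 genes described here encode products of classical, inflammatory macrophage activation, namely the enzymes Nos2 and Acod1, the cytokines Tnf, Il6, Il1a, Il12a, Il12b and Il10, and the costimulatory surface proteins Cd86 and Cd40. They were picked by gene symbol from a table of 54532 mouse genes, in which each symbol matched 1 row. The study compared macrophages of the aorta between mouse models of a pair of syndromes of traditional Chinese medicine, phlegm-dampness retention (PDR) and spleen and kidney Yang deficiency (SKYD), in dyslipidemia. All mice were labelled as ApoE-/- on C57BL/6J and as 6 weeks old, and cells of 5 mice were pooled into 1 RNA-seq library per group after sorting with antibodies to F4/80 and CD11b, which mark macrophages. The PDR mice received 4 weeks of high-fat feed. The SKYD mice were given propylthiouracil, a drug that lowers thyroid hormone, by gavage at a daily 10 mg/kg for 4 weeks, followed by the same feed for 2 weeks, or 6 weeks in all. Drug, length of diet, time of sampling and syndrome cannot be told apart in this design, and with 1 pooled library per group no difference given here has a replicate check.

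Macrophages turn on this set of genes when Toll-like receptors sense microbial products or modified lipoproteins, above all after priming by interferon-gamma. NF-kB, AP-1 and interferon-regulated factors then drive cytokines that recruit and activate other cells, enzymes that change the metabolism of arginine and of the citric acid cycle, and surface proteins that costimulate T cells. Interleukin 10 is induced in the same response and restrains it, and in the artery wall these products are known as part of the inflammation that accompanies lipid deposition.

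Levels are given as FPKM, fragments scaled to gene length and to library size, which allows levels of different genes to be compared within a library. Whole reads were recovered from FPKM and gene length, and summed to 23086889 in PDR (17738 genes) and 25427863 in SKYD (20499 genes). Differences are log2(FPKM + 1) in PDR minus SKYD, a scale that understates the change of low genes, and were read for 10399 tested genes, those whose mean FPKM reached 1. Their median difference was -0.0035. Ratios are of FPKM itself, with exact 95% intervals from the split of a gene's reads between the libraries. These intervals cover counting error only.

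Of the 10 genes, 9 passed the filter of a mean FPKM of 1, and Nos2 did not. More than 2-fold higher in PDR were 6 genes (Acod1, Tnf, Il12a, Il12b, Il10 and Cd40), where 7.38% of all tested genes were as far apart in that direction. None was more than 2-fold higher in SKYD, against 6.91% of all tested genes, and Il6, Il1a and Cd86 lay within 2-fold. Il12a and Il12b reached the filter only through the PDR library, where they were high, so that they had to differ. By the FPKM ratio over genes with at least 10 reads, which all 10 had, 7 of the 10 exceeded 2 in PDR, Nos2 being the addition, against 15.0% of 16703 genes, and none exceeded 2 in SKYD, against 18.4%. Nos2, with 12 reads in PDR and 2 in SKYD, passed this filter only through PDR, so that it too had to differ. The interval of the ratio lay above 2 for the other 6. The 10 genes were therefore not alike in their difference. In bulk RNA, fewer cells of a type and less RNA per cell cannot be told apart, which applies to every difference here.

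**Figure D1:**
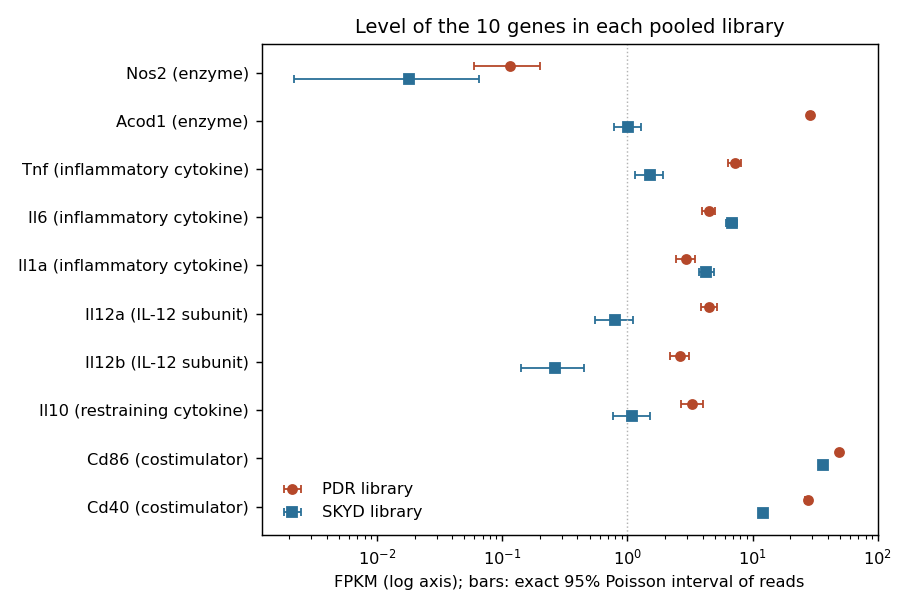
FPKM of the 10 genes (log axis) in PDR (circles) and SKYD (squares), with bars for the exact 95% Poisson interval of the reads and a dotted line at 1 FPKM. Acod1 stands at 28.9 in PDR and 1.01 in SKYD, whereas Il6 and Il1a lie slightly to the right in SKYD on this scale, an order that turns when the libraries are scaled to macrophage markers or to Itgam.

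Among the enzymes, Acod1 (ENSMUSG00000022126, chromosome 14 from 103046977 to 103056573, plus strand, GRCm38) makes itaconate from the citric acid cycle intermediate cis-aconitate. Its FPKM was 28.9 in PDR and 1.01 in SKYD, from 1783 and 66 reads. The level was thus 28.7-fold higher in PDR (95% interval 22.5 to 37.3), and the log2 difference of 3.90 ranked 24 among the 10399 tested genes and 4 among the 8795 that are protein-coding. Acod1 was an abundant transcript of the PDR pool and a scarce one of the SKYD pool. In PDR it stood at percentile 79.9 of the levels of tested genes, and in SKYD at percentile 4.90.

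Nos2 (ENSMUSG00000020826, chromosome 11 from 78920787 to 78960254, plus strand), the inducible nitric oxide synthase that uses arginine, was near the limit of detection. It had 12 reads in PDR and 2 in SKYD, or 0.116 and 0.0181 FPKM, where 3 reads would be 0.0289 and 0.0272 FPKM. The ratio was 6.38 in favor of PDR with an interval from 1.42 to 58.7. The interval holds a slight and a very large difference alike, and only the low level of Nos2 in both pools can be read with any precision. The genes most often named together as enzymes of classical activation were therefore far apart in level, with Acod1 at 249.9 times Nos2 within the PDR library (95% interval 142.7 to 484.6) and at 55.5 times Nos2 within the SKYD library (95% interval 14.8 to 467.9).

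The inflammatory cytokines differed in direction on the deposited scale. Tnf (ENSMUSG00000024401, chromosome 17 from 35199381 to 35202007, minus strand), which acts on endothelium and leukocytes through its receptors, had 7.25 FPKM in PDR and 1.51 in SKYD, from 279 and 62 reads. It was 4.79-fold higher in PDR (95% interval 3.63 to 6.41), with a log2 difference of 1.71 that ranked 315 of all tested genes. Tnf was thus higher in the PDR pool, beyond counting error.

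Il6 (ENSMUSG00000025746, chromosome 5 from 30013114 to 30019981, plus strand) encodes interleukin 6, which drives acute-phase protein synthesis and lymphocyte differentiation. Its level was 4.47 FPKM in PDR and 6.81 in SKYD, from 255 and 413 reads. The level was 1.52-fold higher in SKYD (95% interval 1.30 to 1.79), a log2 difference of -0.51 that turned to 0.29 when the libraries were scaled to macrophage markers and to 0.080 when scaled to Itgam. Il6 was hence not higher in SKYD on every scale. The median of all tested genes moved with it on those 2 scales, to 0.78 and 0.58, since the same factor applies to all genes.

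Il1a (ENSMUSG00000027399, chromosome 2 from 129299610 to 129309972, minus strand), an interleukin 1 that is active without cleavage and is released from damaged cells, had 2.93 FPKM in PDR and 4.28 in SKYD, from 136 and 211 reads. It was 1.46-fold higher in SKYD (95% interval 1.17 to 1.82), with a log2 difference of -0.42 that turned to 0.32 and 0.12 on the same 2 scales. Il1a and Il6 thus differed in the same direction on each scale and by a similar amount. Within each library their ratio needs no scale, and Il1a was at 0.656 of Il6 in PDR (95% interval 0.529 to 0.811) and 0.628 in SKYD (95% interval 0.530 to 0.744), so that a change in their ratio was not detectable at this depth. The span of Il1a overlaps that of Gm14023 (ENSMUSG00000085498, a processed transcript of the plus strand) over 8217 bases, and whether counting used strand is not given in the sources used here. Gm14023 had 37 reads in PDR and 14 in SKYD, so reads of the pair cannot be fully told apart.

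The RefSeq promoters of Tnf and Il12b, which were higher in PDR, are shown with those of Il6 and Il1a, which were not on the deposited scale. The reason is that these cytokines are textbook targets of the same factors. RefSeq starts on GRCm38.p6 were given for 6 of the 10 genes, with 7 promoters since Il12a has 2, and Nos2, Il10, Cd86 and Cd40 had no entry. Each sequence is the 250 bases before the start, from 5′ to 3′ on the strand of the gene, and capitals mark matches to the motifs searched on both strands. Tnf lies on the minus strand at chr17:35202008-35202257, Il12b on the plus strand at chr11:44399813-44400062, Il6 on the plus strand at chr5:30012864-30013113 and Il1a on the minus strand at chr2:129309973-129310222.
Tnf: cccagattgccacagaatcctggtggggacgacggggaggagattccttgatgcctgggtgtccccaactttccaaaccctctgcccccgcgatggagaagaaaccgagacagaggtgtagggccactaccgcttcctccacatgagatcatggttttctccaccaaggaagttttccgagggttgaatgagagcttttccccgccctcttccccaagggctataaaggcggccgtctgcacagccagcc
Il12b: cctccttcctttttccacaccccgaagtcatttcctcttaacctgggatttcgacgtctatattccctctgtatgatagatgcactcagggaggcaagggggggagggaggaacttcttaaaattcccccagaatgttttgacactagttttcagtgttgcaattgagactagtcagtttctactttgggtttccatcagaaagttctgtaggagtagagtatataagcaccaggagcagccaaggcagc
Il6: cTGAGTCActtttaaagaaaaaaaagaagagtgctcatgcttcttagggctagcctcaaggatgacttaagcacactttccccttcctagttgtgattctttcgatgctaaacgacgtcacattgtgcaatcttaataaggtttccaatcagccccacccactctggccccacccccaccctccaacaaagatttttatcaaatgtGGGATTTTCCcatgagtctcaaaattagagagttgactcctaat
Il1a: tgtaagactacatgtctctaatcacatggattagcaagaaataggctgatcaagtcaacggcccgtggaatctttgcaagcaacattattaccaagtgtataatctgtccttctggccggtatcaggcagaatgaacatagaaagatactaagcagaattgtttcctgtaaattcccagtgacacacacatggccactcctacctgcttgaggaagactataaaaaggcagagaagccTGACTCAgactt
The motifs were the NF-kB consensus, the interferon-gamma activated sequence TTCNNNGAA, the interferon regulatory factor element (GAAA, any 2 bases, GAAA) and the AP-1 motif TGANTCA, which reads the same on both strands. Il6 held an NF-kB match from 44 to 35 bases and an AP-1 match from 249 to 243 bases before its start, and the 2 do not overlap. Il1a held an AP-1 match from 12 to 6 bases before its start. No match lay in these windows for Tnf, Il12b, Acod1 or either start of Il12a, which says only that these letters are absent there. Of 32851 promoters of the same length, 7.25% held the NF-kB motif, 7.02% TTCNNNGAA, 2.98% the interferon regulatory factor element and 6.75% TGANTCA. The matches are a description of the sequence, and binding was not measured.

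Interleukin 12 is a heterodimer of the products of Il12a (p35) and Il12b (p40) and turns T cells and natural killer cells to interferon-gamma production. Il12a (ENSMUSG00000027776, chromosome 3 from 68690644 to 68698547, plus strand) had 4.48 FPKM in PDR and 0.800 in SKYD, from 179 and 34 reads, and was 5.60-fold higher in PDR (95% interval 3.87 to 8.34). Il12b (ENSMUSG00000004296, chromosome 11 from 44400063 to 44414033, plus strand) had 2.62 and 0.264 FPKM, from 121 and 13 reads, and was 9.90-fold higher in PDR (95% interval 5.58 to 19.1). Both subunits were therefore higher in the PDR pool, with log2 differences of 1.61 and 1.52. The order of these differences depends on the pseudocount, as Il12b had the lower level and the larger ratio.

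Il10 (ENSMUSG00000016529, chromosome 1 from 131019845 to 131024974, plus strand), the cytokine that restrains the response, lay on the same side as interleukin 12. It had 3.28 FPKM in PDR and 1.10 in SKYD, from 101 and 36 reads, and was 2.99-fold higher in PDR (95% interval 2.02 to 4.50). The log2 difference of 1.03 was just past the 2-fold threshold. Relative to Il12b within a library, Il10 stood at 1.25 in PDR (95% interval 0.953 to 1.65) and at 4.16 in SKYD (95% interval 2.15 to 8.54). The restraining cytokine thus had a level like that of Il12b in the PDR pool and exceeded it in the SKYD pool.

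Cd86 and Cd40 were the most abundant of the cytokine and costimulator genes in both libraries. Cd86 (ENSMUSG00000022901, chromosome 16 from 36603869 to 36666081, minus strand), a ligand of CD28 and CTLA4 on T cells, had 49.5 FPKM in PDR and 36.6 in SKYD, from 4253 and 3347 reads. It was 1.35-fold higher in PDR (95% interval 1.29 to 1.42), a log2 difference of 0.43 that exceeded 1 only on the macrophage-marker scale (1.35) and the Itgam scale (1.11). Cd86 was thus high in both pools.

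Cd40 (ENSMUSG00000017652, chromosome 2 from 165055627 to 165072948, plus strand), the receptor through which T cells license antigen-presenting cells, had 27.5 FPKM in PDR and 12.03 in SKYD, from 2201 and 1024 reads. It was 2.29-fold higher in PDR (95% interval 2.12 to 2.47), with a log2 difference of 1.13. Within a library Cd40 stood at 0.556 of Cd86 in PDR (95% interval 0.528 to 0.586) and at 0.329 in SKYD (95% interval 0.306 to 0.353). These costimulators hence differed unequally between the pools, and that statement does not depend on how the libraries are scaled.

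**Figure D2:**
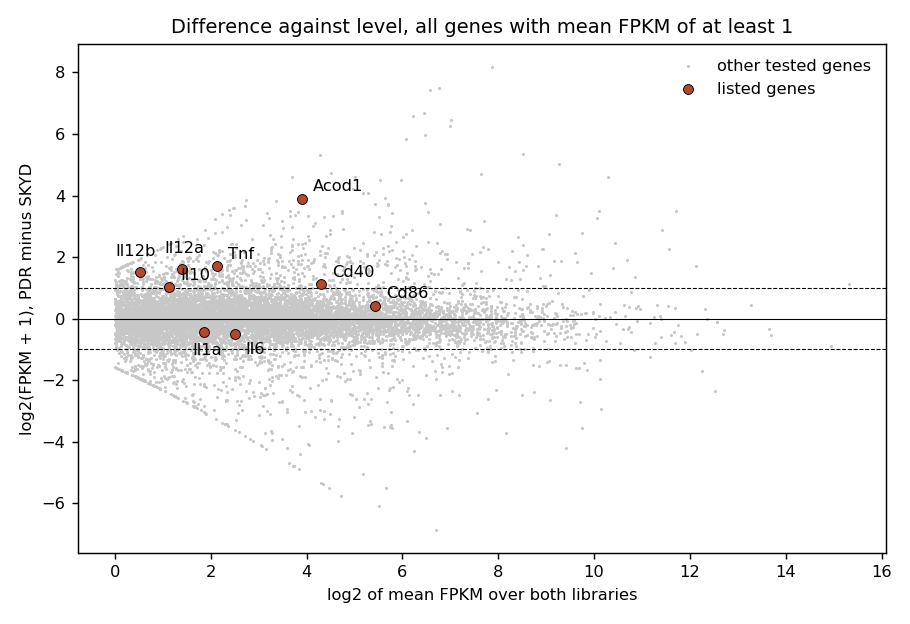
Difference in log2(FPKM + 1), PDR minus SKYD, against log2 of the mean FPKM for the 10399 tested genes (grey) and for the 9 listed genes that were tested (filled circles), with dashed lines at 2-fold. Acod1 lies at 3.90 above the bulk of genes of its level, Cd86 at 0.43 and Cd40 at 1.13 lie among the higher levels, and Il6 and Il1a lie below 0, which they exceed when the libraries are scaled to macrophage markers or to Itgam.

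The order of levels within a library also differed. In PDR the order by FPKM was Cd86, Acod1, Cd40, Tnf, Il12a, Il6, Il10, Il1a, Il12b and Nos2. Acod1 and Cd40, Il12a and Il6, Il10 and Il1a, and Il1a and Il12b were neighbors whose ratio held 1 within its counting interval. In SKYD the order was Cd86, Cd40, Il6, Il1a, Tnf, Il10, Acod1, Il12a, Il12b and Nos2, where Tnf and Il10, Il10 and Acod1, and Acod1 and Il12a were neighbors of that kind. Cd86 led and Nos2 came last in both, whereas Acod1 went from place 2 to place 7 and Il6 from place 6 to place 3.

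Ratios of genes within a library do not depend on depth or scaling, and the pairs given here were chosen after the values were seen. Tnf was at 1.62 of Il6 in PDR (95% interval 1.36 to 1.93) and at 0.222 in SKYD (95% interval 0.167 to 0.291). The more abundant of these cytokines was therefore Tnf in the PDR pool and Il6 in the SKYD pool. Il1rn, the interleukin 1 receptor antagonist, was at 3.85 of Il1a in PDR (95% interval 3.23 to 4.62) and at 2.32 in SKYD (95% interval 2.01 to 2.70), so the antagonist exceeded Il1a in both. Il1b, the other cytokine it opposes, was far more abundant than either, and Il1a stood at 0.0327 of it in PDR (95% interval 0.0273 to 0.0388) and at 0.0602 in SKYD (95% interval 0.0521 to 0.0692).

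Genes of the receptors and signalling steps upstream were read from lists. In the Toll-like receptor and NF-kB path, 31 of 32 genes were tested, with a median difference of 0.28. Past 2-fold lay 4 on the PDR side and 2 on the SKYD side, where 7.38% and 6.91% of all tested genes did. The FPKM ratio, which has no pseudocount, exceeded 2 in PDR for 7 of the 31 and in SKYD for 3, where 10.501% and 9.914% of all tested genes did. Of the 7, Rel passed the filter only through PDR, so that it had to differ. Cd14, the coreceptor of lipopolysaccharide, had the highest mean of the libraries, at 149 FPKM in PDR and 938 in SKYD, and was 6.30-fold higher in SKYD (95% interval 6.13 to 6.49). Nfkbia, the inhibitor of NF-kB that is itself an NF-kB target, had 230.3 and 484.8 FPKM and a difference of -1.07, which was -0.12 on the macrophage-marker scale. Ly96, the partner of Tlr4, had 75.2 and 132.0 FPKM and a difference of -0.80 that turned to 0.14 on that scale, and Lbp, the lipopolysaccharide binding protein, had 6.48 and 13.4 FPKM and a difference of -0.95, or -0.09 on that scale. Tlr4 itself, chosen after its value was seen, lay on the other side, with 13.05 FPKM in PDR and 6.55 in SKYD, a difference of 0.90. The genes of lipopolysaccharide sensing were thus not all on the same side. On the PDR side were Nfkb2 at 1.18, Tlr2 at 1.12 and Relb at 1.04, the first and last of which form the noncanonical NF-kB dimer.

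The interferon-gamma path had 14 of 17 genes tested and a median of 1.24. More than 2-fold higher were 8 in PDR and 0 in SKYD, where 7.38% and 6.91% of all tested genes were. By the FPKM ratio 1 exceeded 2 in SKYD, against 9.914% of all tested genes. Cxcl10, a chemokine for activated T cells, had 25.3 FPKM in PDR and 1.55 in SKYD, a difference of 3.37. The GTPase gene Gbp2 had 130.4 and 16.8 FPKM and a difference of 2.88, and Cxcl9 had 36.7 and 6.70 FPKM and a difference of 2.29. These 3 targets of the cytokine were higher in the PDR pool. The paper names responses to interferon-gamma and to interferon-beta among the processes raised in PDR, and the 2 were not told apart here. The interferon-gamma receptor chain Ifngr1 was at 113.8 and 167.6 FPKM, a difference of -0.55 that turned to 0.39 on the macrophage-marker scale. The transcription factor gene Irf5 had a difference of 0.45, and the kinase gene Jak1 one of -0.10 that turned to 0.80 on that scale. Socs1, a feedback inhibitor that the cytokine also induces, had one of -0.99, or -0.15 on that scale. Ifng itself, chosen after its value was seen, was under the filter with 39 reads in PDR and 6 in SKYD, a ratio of 6.92 (95% interval 2.91 to 20.0).

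Among receptors and partners of these cytokines and costimulators, 17 of 20 genes were tested, with a median of 0.09. In each direction 2 were more than 2-fold higher, against 7.38% of all tested genes in PDR and 6.91% in SKYD. By the FPKM ratio, 5 exceeded 2 in PDR and 2 in SKYD, against 10.501% and 9.914%. Of the 5, Il12rb1 passed the filter only through PDR, so that it had to differ. Il1r2, the decoy receptor of interleukin 1, had 23.6 FPKM in PDR and 115.9 in SKYD and was 4.91-fold higher in SKYD (95% interval 4.60 to 5.25). Cd28, the T cell receptor of Cd86, had 3.86 and 14.3 FPKM, a difference of -1.66. For the receptors of tumor necrosis factor, Tnfrsf1a had a difference of -0.78 that turned to 0.14 on the macrophage-marker scale, and Tnfrsf1b one of 0.64. Traf1, an adaptor of this receptor family, had 1.24, the T cell costimulator Icos 1.04, and Adam17, the protease that sheds tumor necrosis factor, 0.99. Il1r2 and Cd28 thus lay opposite to Tnf and Cd40, and stayed on the SKYD side on every scale tried. Cd28 is a T cell gene, and Cd3d, Cd3e and Cd3g lay on its side, at -2.36, -2.25 and -2.47, whereas Icos did not. The part of T cells in the difference of Cd28 was not tested. On the macrophage-marker scale Il1r2 was at -1.32, whereas Cd28 was within 2-fold, at -0.83.

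In the metabolism of arginine, nitric oxide and itaconate, 19 of 25 genes were tested, with a median of 0.12. More than 2-fold higher were 0 in PDR (2 by the FPKM ratio) and 2 in SKYD. Of all tested genes, 7.38% (10.501% by the ratio) and 6.91% were. Sdhb, a subunit of the succinate dehydrogenase that itaconate inhibits, had 300.1 FPKM in PDR and 252.2 in SKYD, and Idh1, the cytosolic isocitrate dehydrogenase, had 134.3 and 114.8. Ass1, which regenerates arginine, had a difference of 0.91. The differences of Ddah2, which degrades methylarginine inhibitors of nitric oxide synthase, and of Spr, which makes its cofactor, were -1.58 and -1.03, and -0.85 and -0.21 on the macrophage-marker scale. That of Idh2 was -0.77, which turned to 0.15 on that scale. Nos1 had 0 reads in both. No tested gene of this list came near the difference of Acod1. On the macrophage-marker scale 9 of the 19 exceeded 2-fold in PDR, where 34.0% of all tested genes did.

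Other genes induced in classical activation had 24 of 30 tested and a median of 0.64. More than 2-fold higher were 8 in PDR and 2 in SKYD, where 7.38% and 6.91% of all tested genes were. Ccl2, the chemokine for monocytes, had 198.5 FPKM in PDR and 46.0 in SKYD, a difference of 2.09. Cybb, the catalytic subunit of the phagocyte oxidase, had 119.6 and 54.3 FPKM, a difference of 1.13, and Il1b 89.8 and 71.1 FPKM, a difference of 0.33. Lta and Ccl5 had 1.74 and 1.69. On the other side, Ptges, the prostaglandin E synthase, had -1.29 but was tested only through SKYD, so that it had to differ. The feedback inhibitor Socs3 had -1.12, or -0.21 on the macrophage-marker scale, and Il18 had -0.25, which turned to 0.68 on that scale. Il23a, Csf3 and Il19 had 0 reads in both libraries, so that p19, the partner of Il12b in interleukin 23, was not detected at this depth. The chemokines Ccl2 and Ccl5 lay with Tnf, and Il1b with Cd86, in the size of the difference.

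**Figure D3:**
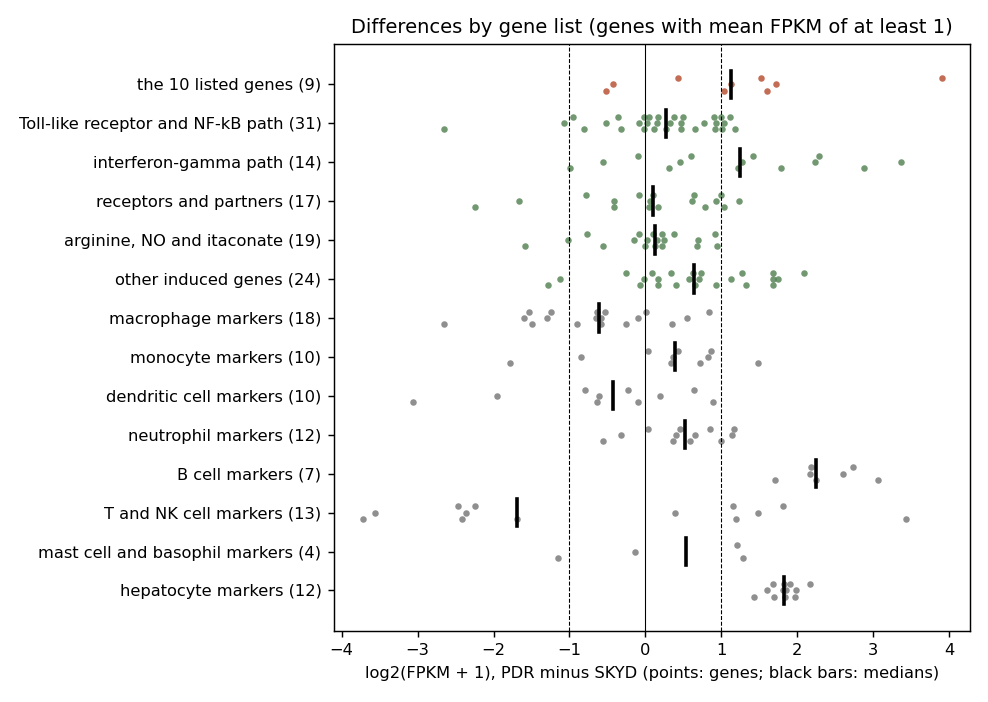
Difference in log2(FPKM + 1), PDR minus SKYD, of each tested gene of the 10 listed genes, 5 lists of related genes and 8 lists of cell type markers, with a black bar at each median, dashed lines at 2-fold and the number of genes tested in parentheses. The interferon-gamma path has a median of 1.24 beside 1.13 for the listed genes, and B cell and hepatocyte markers reach 2.25 and 1.83. The median of dendritic cell markers (-0.42) turns positive when the libraries are scaled to macrophage markers or to Itgam, and so does that of macrophage markers (-0.61), from which these scales are built.

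Apoe, the gene named in the genotype label of both groups, had 17336 reads in PDR and 3618 in SKYD, or 345.2 and 67.7 FPKM. Its RNA was thus present in both pools, which goes against a full loss of the transcript, and a gene total does not tell whether the reads lie in the deleted part. The sorted pools held the markers of the sort, with Adgre1 (the F4/80 gene) at 87.3 FPKM in PDR and 93.3 in SKYD, and Itgam (the CD11b gene) at 8.84 and 14.4. All 18 macrophage markers were tested, and the median was -0.61. Past 2-fold lay 0 on the PDR side and 6 on the SKYD side, where 7.38% and 6.91% of all tested genes did. The macrophage-marker and Itgam scales are built from these genes, so values of the list on them say nothing further. The 18 markers took 3.43% of reads in PDR and 6.35% in SKYD, most of them on Lyz2, and 0.453% and 1.005% without it. Most of the reads without Lyz2 were on C1qa, C1qb, C1qc and Cd14, with differences of -1.50, -1.25, -1.59 and -2.65. Adgre1 was at -0.10, and Csf1r, Fcgr1, Marco and Timd4 lay on the PDR side, at 0.35, 0.54, 0.84 and 0.005. The rest lay on the SKYD side. The pool with the lower macrophage-marker share was thus the one with more Acod1, Tnf, Il12a, Il12b, Il10 and Cd40. This share rests mainly on Lyz2, the C1q genes and Cd14, and not all of the markers moved with it.

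Markers of other cells moved as well. B cell markers were tested for 7 of 10 genes, all 7 more than 2-fold higher in PDR, with Cd79b on top and 0.376% of reads in PDR against 0.0699% in SKYD, and B cells are known to express Cd40, Cd86, Il6 and Il10. T and NK cell markers, led by Cd8b1, took 0.103% and 0.295% of reads, with a median of -1.69. The 7 of 13 past 2-fold in SKYD were the T cell genes Cd3d, Cd3e, Cd3g, Cd4, Cd8a, Cd8b1 and Lck, from -1.69 to -3.72. The 5 past 2-fold in PDR were Gzmb (3.43), Ncr1 (1.81), Nkg7 (1.48), Prf1 (1.20) and Gzma (1.15), genes of natural killer and cytotoxic cells, which are known as a source of interferon-gamma. Monocyte markers, led by Chil3, took 1.27% and 0.732%, with 1 of 10 higher in each direction and a median of 0.39, and neutrophil markers, led by S100a9, took 0.355% and 0.267%, with 2 of 12 higher in PDR. Dendritic cells are known as a source of interleukin 12, and their markers, led by Bst2 and without reads on Il4i1, took 0.0437% in PDR and 0.0639% in SKYD, with 2 of 10 tested genes more than 2-fold higher in SKYD and a median of -0.42 that turned to 0.50 on the macrophage-marker scale. Mast cell and basophil markers, led by Cpa3 and without reads on Tpsb2 or Mcpt4, took 0.00223% and 0.00271%, with 2 of 4 tested genes higher in PDR and 1 in SKYD. Hepatocyte markers, a list added after the data were seen, were all tested and all 12 were more than 2-fold higher in PDR, with a median of 1.83. They took 0.257% of reads in PDR and 0.0726% in SKYD, led by Apoa2, and hepatocytes are known to express urea cycle genes such as Ass1. Of the markers past 2-fold, Prf1 and the mast cell gene Cma1 reached the filter only through PDR. Siglech of dendritic cells and Cd163 of macrophages reached it only through SKYD. Fscn1, through PDR, and Xcr1, through SKYD, did so within 2-fold in log2(FPKM + 1). All of these genes therefore had to differ, though the filter alone did not force a 2-fold difference on that scale. The part of these cells in the differences of the listed genes was not tested.

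Scaling to the summed macrophage markers moved the median of all tested genes by 0.79 and scaling to Itgam moved it by 0.58, while scaling to Adgre1 moved it by 0.08. Lyz2 alone gave 22217 of the 25103 summed marker FPKM in PDR and 41336 of 48464 in SKYD. The macrophage-marker scale is therefore mostly a scale to Lyz2. Of the genes past 2-fold, 51.6% were higher in PDR as deposited, 92.4% on the macrophage-marker scale and 86.3% on the Itgam scale. On both of these, 7 of the listed genes exceeded 2-fold in PDR, Cd86 being the addition, where 34.0% and 21.9% of all tested genes were. For the lists of related genes, the macrophage-marker scale put 15 of 31 Toll-like receptor and NF-kB genes past 2-fold in PDR and 1 in SKYD. Of all tested genes, 34.0% and 2.81% were past it on that scale. It put 12 of 15 interferon-gamma genes past 2-fold in PDR, 8 of 17 receptors and partners with 1 in SKYD, and 17 of 23 other induced genes. Acod1 had 4.58 and 4.40 on the macrophage-marker and Itgam scales, against 3.90 as deposited. The order of the listed genes by difference was led by Acod1 on each scale shown.

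**Figure D4:**
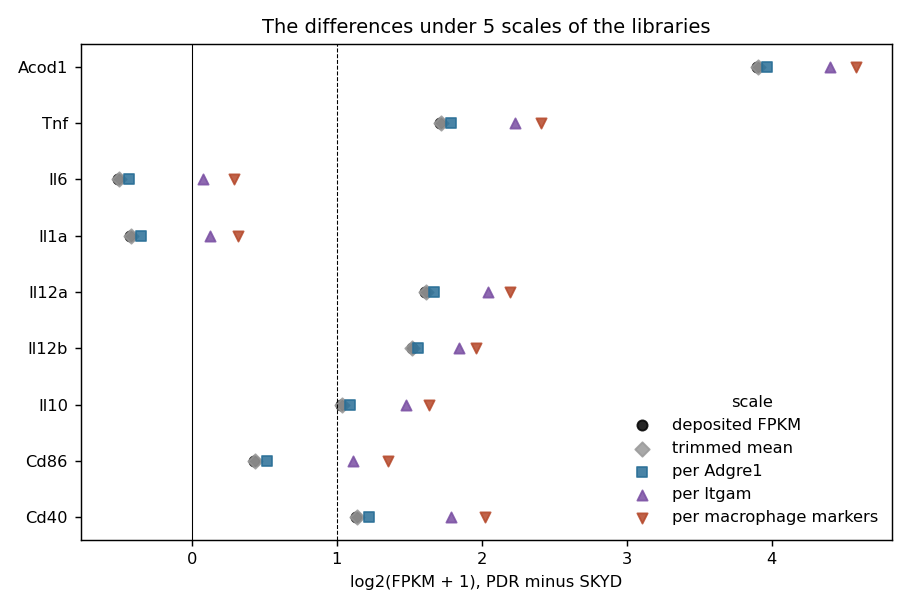
Difference in log2(FPKM + 1), PDR minus SKYD, of the 9 tested genes on 5 scales: as deposited (circles), after a trimmed mean of log ratios (diamonds), per Adgre1 (squares), per Itgam (upward triangles) and per summed macrophage markers (downward triangles). Acod1 lies between 3.90 and 4.58, whereas Il6 and Il1a lie below 0 on 3 of the scales and above 0 per Itgam and per macrophage markers.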

How the data were processed

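Each group gave 1 RNA-seq library, made from pooled cells of the aorta sorted as macrophages. The authors aligned paired-end reads with TopHat 2.0.9 and Bowtie 2.0.6, counted them per gene with HTSeq 0.6.1 and deposited FPKM with gene length and position. Their processing notes name mm9, but the deposited positions equal those of GENCODE M21 on GRCm38 for 98.3% of 54495 shared genes and for all 10 listed genes. FPKM times gene length, divided by a step fitted to each library, gave whole reads (within 0.1 reads) for 100% of genes above 0.

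Differences are log2(FPKM + 1), PDR minus SKYD, over genes whose mean FPKM reached 1, with a threshold of 2-fold. Intervals are exact 95% Clopper-Pearson or Poisson limits of reads. A count of 0 allows 3 reads, which is 1.3e-05% (PDR) and 1.18e-05% (SKYD) of the reads on genes. No p-value was computed. The listed genes and the lists were chosen with earlier results of these data known. The text names the 10 genes, the 3 with the highest mean FPKM and the 3 largest differences each way of each list of related genes, the most abundant gene of each marker list, markers with 0 reads and genes that overlap a listed gene. Others were chosen after their values were seen, and 2 genes that the rule names are not reported here. The hepatocyte list was added after the data were seen. Cd14 is in both a path list and the macrophage markers. Promoters are from RefSeq (GRCm38.p6). That of Acod1 reaches past the start in the deposited table and is not printed.

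Alternatives were pseudocounts of 0.1 and 0.01, no filter and a mean FPKM of at least 5, TPM, centring on the median, a trimmed mean (30% of differences and 5% of levels), macrophage markers, Adgre1 and Itgam as scales, protein-coding genes only, a 4-fold threshold and the FPKM ratio with no pseudocount. The steps were tested on simulated data. Tables were read with pandas 2.3.3 and numpy 2.4.6 in Python 3.11.15, limits came from scipy 1.17.1, and plots from matplotlib 3.10.9. Blood lipids, staining and the normal control mice were not analysed here.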

Additional observations from a re-analysis of the deposited data

How the results depend on the processing

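No result changed sign past the 2-fold threshold, and none of the listed genes was more than 2-fold higher in SKYD under any alternative. Acod1, Tnf, Il12a, Il12b, Il10 and Cd40 stayed more than 2-fold higher in PDR wherever they were tested at that threshold. The number of listed genes higher in PDR was 2 with a mean FPKM of at least 5, since fewer were tested, and 1 (Acod1) at a 4-fold threshold, which 4 of the tested ones (also Tnf, Il12a and Il12b) pass by the FPKM ratio. Il6 and Il1a, within 2-fold throughout, changed sign on the macrophage-marker and Itgam scales. The median difference of the listed genes was 1.13 as reported and 0.78 with a mean FPKM of at least 5. With a pseudocount of 0.1 it was 1.50, with Acod1 at 4.71, Tnf at 2.19, Il12a at 2.35, Il12b at 2.90 and Il10 at 1.50. With 0.01 it was 1.57, with Acod1 at 4.83, Tnf at 2.25, Il12a at 2.47, Il12b at 3.26 and Il10 at 1.57. With the FPKM ratio and no pseudocount it was 1.92, with Acod1 at 4.85, Tnf at 2.26, Il12a at 2.49, Il12b at 3.31, Il10 at 1.58 and Nos2 at 2.67. The last median also counts Nos2, which the filter on reads lets in only through its 12 reads in PDR, so that it had to differ. The differences of single genes grow without the pseudocount, which shrinks low genes. As TPM, Acod1 had 4.21 and Il12b 1.90, and the cause was not tested. As TPM, genes past 2-fold in PDR numbered 7 (4 as reported) in the Toll-like receptor list, 4 (2) in the receptor list and 2 (0) in the metabolism list, and 1 (0) interferon-gamma gene passed 2-fold in SKYD, where all tested genes gave 8.74% (7.38%) in PDR and 7.91% (6.91%) in SKYD. On the summed macrophage markers the median was 1.96, with Acod1 at 4.58, Tnf at 2.41, Il6 at 0.29, Il1a at 0.32, Il12a at 2.20, Il12b at 1.96, Il10 at 1.63, Cd86 at 1.35 and Cd40 at 2.02. On Itgam, a scale chosen after the data were seen, it was 1.79, with Acod1 at 4.40, Tnf at 2.23, Il6 at 0.080, Il1a at 0.12, Il12a at 2.04, Il12b at 1.85, Il10 at 1.48, Cd86 at 1.11 and Cd40 at 1.79. On Adgre1, also chosen then, Cd86 had 0.52. Each of these scales moves every gene one way by construction. The medians of the Toll-like receptor, interferon-gamma, receptor, metabolism and other induced lists were 0.88, 1.92, 0.96, 0.95 and 1.52 on macrophage markers, and 0.71, 1.74, 0.73, 0.74 and 1.29 on Itgam. The interferon-gamma median was 1.44 and 1.47 with pseudocounts of 0.1 and 0.01, 0.95 with no filter and 1.62 as the FPKM ratio. That of the Toll-like receptor list was 0.38 with a mean FPKM of at least 5, and that of other induced genes 0.49 with no filter, where the set of genes tested differs by construction. The other 133 values moved by less than the counting interval reaches to either side of its center, or by less than 1.5 times for counts. Medians have no such interval, and that of Cd40, the gene at the median of the listed genes, was used for them. Protein-coding genes alone, centring on the median and the trimmed mean gave values of that kind. No paired analysis was possible because each group has 1 library. Depth limits Nos2 most, with 12 and 2 reads, and Il12b in SKYD with 13. Intervals do not cover the spread between mice, and pools of sorted cells do not show which cells held the reads.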
